A study of Mus musculus with 6 samples.

Results

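The genes of respiratory complexes II, III, IV and V and of cytochrome c were compared between the basal cochlea of young and of old mice. They were taken by symbol (Sdha to Sdhd, all Uqcr genes, Cyc1, Cycs, all Cox4 to Cox8 genes and all Atp5 genes), which gave 50 of 34395 gene entries. By complex these were 4 genes for complex II, 9 for III, 19 for IV, 17 for V and Cycs for cytochrome c; 49 are protein coding and 1, Cox7c-ps1, is by its symbol a pseudogene. All 6 libraries came from C57BL/6J mice, an inbred strain known for hearing loss that starts at the cochlear base, with 3 libraries labelled young (young 1, 2 and 3) and 3 labelled old (old 1, 2 and 3). No treatment or transgene is named. Ages and sex are not stated, nor is it said that the libraries are from different animals; the p-values therefore cover the spread between libraries, which may be technical.

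Complexes II and III pass electrons from succinate and from ubiquinol towards cytochrome c, a small soluble carrier, and complex IV (cytochrome c oxidase) passes them on to oxygen. Complexes III and IV pump protons out of the mitochondrial matrix, and complex V (ATP synthase) lets them flow back through a ring of c subunits to make ATP. In the cochlea, the stria vascularis and the hair cells are known for a high demand for ATP, since they sustain ion transport. Complex II is wholly encoded in the nucleus, while III, IV and V also need subunits from the mitochondrial genome, which were not analysed here.

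The libraries held 37083965, 39433573 and 38086116 gene counts in young 1, 2 and 3 and 26814566, 26839049 and 26245396 in old 1, 2 and 3. Xist, the RNA of the inactive X chromosome, had between 12613 and 18384 counts in the young and between 0 and 9 in the old libraries, so age group and sex-linked profile cannot be told apart. The markers of the tissue were present: all 7 hair cell and all 5 marginal cell markers passed the filter on low counts. Young 1 stood apart from the other young libraries for the short transcripts among the members. The median ratio of CPM (counts scaled by the library total and by TMM, edgeR's correction for composition) to young 1 over the 21 members with an effective length under 400 bases was 1.35 in young 2 and 1.45 in young 3. Over the 12 members of 1000 bases or more it was 1.09 and 1.16. Effective length is the length that the deposited counts and FPKM (fragments scaled by transcript length and library total) together imply.

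Nearly all of the measured members were lower in the old libraries. Of 47 members that passed the filter, 45 fell, 1 rose (Cox7c-ps1) and 1 did not pass the test (Cox4i2), by edgeR at an adjusted p under 0.05 over 20157 genes. The same test called 27.3% of all tested genes lower and 26.9% higher, and 34.7% of the protein-coding genes lower. The median log2 fold change, old minus young, was -0.92 over the members, 0.01 over all tested genes and -0.13 over protein-coding genes. In 44 members all 3 old libraries lay below all 3 young libraries, an arrangement found in 31% of all tested genes. A fall of at least 2-fold that passed was found in 20 members, against 6.15% of all tested genes. In bulk tissue, fewer cells of a type and less RNA per cell cannot be told apart. Cox8c, Cox6a2 and Cox7b2 were not tested: Cox8c had no count, Cox7b2 had 1 count in young 1 and none in the other libraries, and Cox6a2 had between 1 and 9 counts in each library.

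**Figure D1:**
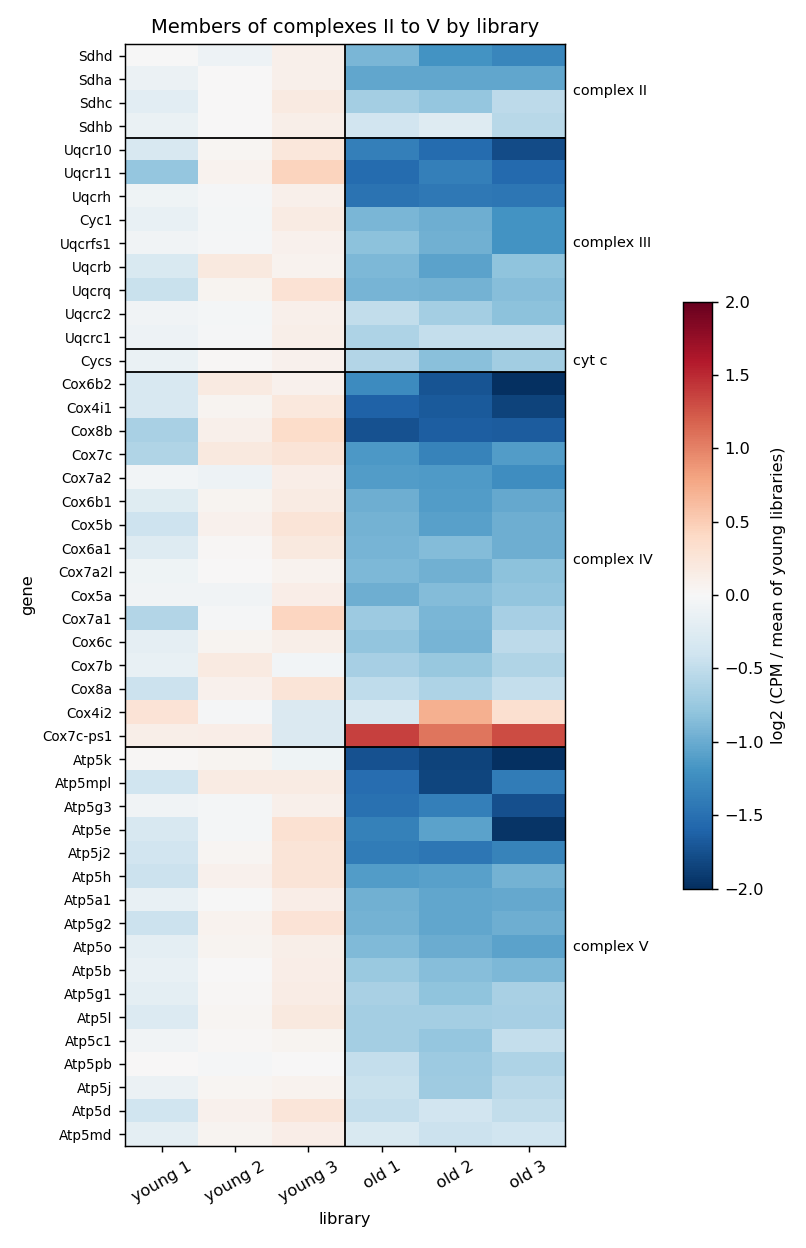
Heat map of the 47 tested members (rows, grouped by complex) in the 6 libraries (columns), coloured by log2 of CPM over the mean of the 3 young libraries, with values past the ends of the scale given the end colour. The old columns are blue in all rows but Cox4i2, which is mixed, and Cox7c-ps1, and young 1 is the bluest young column for many short members of complexes III to V.

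Scaling moved the size of these falls. With library totals in place of TMM, the median of all tested genes shifted up by 0.27 on the log2 scale, and calls over all tested genes went from 27.3% lower and 26.9% higher to 14.5% lower and 41% higher. The members kept 40 lower calls in that fit and a median of -0.64, with the same 45 members below 0. The 5 calls lost were those of Atp5d, Atp5md, Cox7a1, Cox8a and Sdhb. TMM on protein-coding genes alone shifted the median of all tested genes by 0.13 and called 43 members lower, against 20.6% of all tested genes. From FPKM, limma-trend called 40 members lower after adding 1 before the log2 and 39 after adding 0.1, against 13.7% and 13.9% of all tested genes.

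The falls were set beside transcript length, since short coding genes fell as a class. Among protein-coding genes with an effective length under 400 bases 74.2% were called lower, with a median log2 fold change of -0.97. The 21 members in that class all fell, with a median of -1.04, a size close to that background. From 400 to under 1000 bases 12 of 13 members fell with a median of -0.87, against 50.6% of coding genes and a median of -0.49. Among genes of 1000 bases or more 12 of 12 members fell with a median of -0.87, against 32.5% of coding genes and a median of -0.10. With library totals all 12 long members were still called lower, while 16% of long coding genes were. Across the 46 tested coding members the log2 fold change had a Pearson correlation of 0.41 with the log10 effective length (Spearman 0.42); the points are genes of the same 6 libraries and are not independent. The median effective length itself differed between libraries, by -10.9 and -12.4 bases in young 2 and 3 and by -26.8, -21.5 and -24.7 bases in old 1, 2 and 3 relative to young 1. With that length as an offset in the model, 45 members and 26% of all tested genes were called lower, and the members' median was -0.90. Without young 1 again 45 members were called lower, with a median of -1.08, and 28.9% of all tested genes. What part the class-wide fall of short coding genes had in the falls of the short members was not tested.

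**Figure D2:**
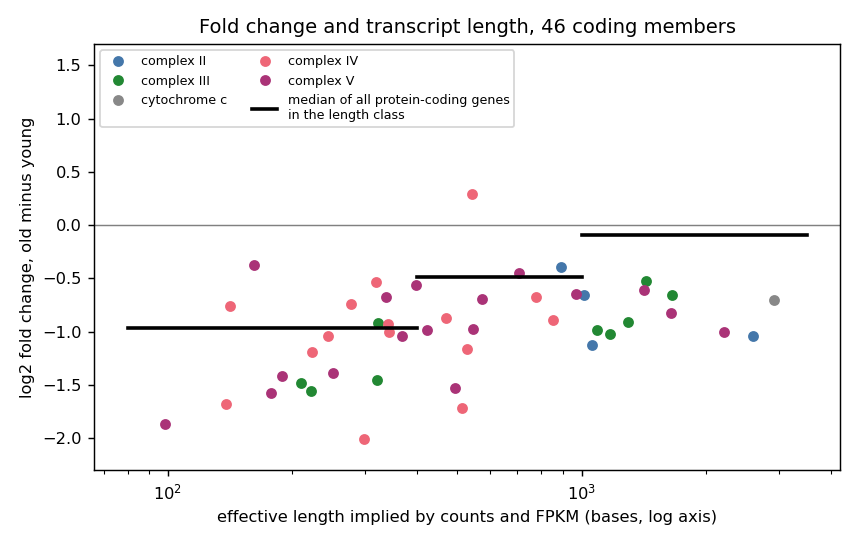
Log2 fold change (old minus young) of the 46 tested coding members against effective length in bases on a log axis, 1 point per gene coloured by complex, with a bar for the median of all protein-coding genes in each length class. Members over 1000 bases lie between -0.53 and -1.13, all below the class median of -0.10, while short members scatter on both sides of theirs at -0.97.

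Complex II oxidises succinate and is shared with the citric acid cycle, and all 4 of its genes fell, with a median log2 fold change of -0.85. The same test called 27.3% of all tested genes lower. Sdha encodes the flavoprotein that binds succinate and lies at chr13:74322255-74350240 (GRCm38.p6). It had 371, 407 and 432 CPM in young 1, 2 and 3 and 197, 196 and 197 CPM in old 1, 2 and 3. The old libraries were almost equal to each other and all below the young ones, a log2 fold change of -1.04 ± 0.08 (SE; edgeR, adjusted p = 1.57e-05). Its partner in the catalytic part is the iron-sulfur protein encoded by Sdhb, which had 70.5, 77.5 and 83.4 CPM in the young and 59.1, 64.8 and 52.5 CPM in the old libraries. The groups did not overlap, but the fall was small (-0.39 ± 0.10, adjusted p = 0.00775 by edgeR) and did not pass with library totals (-0.11, adjusted p = 0.331). The membrane anchors that bind ubiquinone are encoded by Sdhc and Sdhd. Sdhd fell furthest in the complex, from 62.6, 58.9 and 67.2 CPM to 33.3, 27.6 and 25.5 CPM (-1.13 ± 0.11, adjusted p = 4.22e-05 by edgeR). For Sdhc the values were 104, 121 and 137 CPM in the young and 75.0, 70.4 and 83.8 CPM in the old libraries (-0.66 ± 0.11, adjusted p = 0.000746 by edgeR). Within the complex, the share of Sdhb in the summed FPKM went from a mean of 20.8% to 26.8%, and that of Sdha from 36.5% to 31.7%.

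Complex III carries electrons from ubiquinol to cytochrome c, and all 9 of its genes fell (median -0.98). Called lower were 27.3% of all tested genes and 74.2% of protein-coding genes with an effective length under 400 bases. The 5 small accessory subunits had a median of -1.45 and the large core pair Uqcrc1 and Uqcrc2 one of -0.59. Their transcripts differed in effective length as well. It was 222, 210, 320 and 322 bases for Uqcr10, Uqcr11, Uqcrh and Uqcrb and 1292 for the accessory gene Uqcrq. Uqcrc1 had 1430 bases and Uqcrc2 1656. The part of length in this contrast was not tested. The accessory subunit gene Uqcr10 stood at 62.6, 80.6 and 90.9 CPM in the young and at 30.1, 26.7 and 22.6 CPM in the old libraries (-1.56 ± 0.15, adjusted p = 3.6e-05 by edgeR). Another accessory subunit gene, Uqcr11, stood at 52.9, 95.9 and 124 CPM in the young and at 31.2, 35.2 and 30.9 CPM in the old libraries (-1.49 ± 0.24, adjusted p = 0.000636 by edgeR). Both were below the young range in every old library, and young 1 was the lowest young library for each. These 2 had the highest FPKM of the complex, with means over the 6 libraries of 222 for Uqcr10 and 276 for Uqcr11. Uqcrh, the acidic hinge protein that assists the docking of cytochrome c, had the smallest SE among the accessory genes. It had 89.5, 93.1 and 102 CPM in the young and 34.0, 35.0 and 34.9 CPM in the old libraries, and was singled out after its values were seen. Its log2 fold change was -1.45 ± 0.08 (adjusted p = 4.79e-06 by edgeR). The catalytic pair lay between these, with a log2 fold change of -1.03 ± 0.10 for Cyc1 (adjusted p = 5.1e-05 by edgeR), which encodes the haem-bearing cytochrome c1, and for Uqcrfs1, which encodes the Rieske iron-sulfur protein, of -0.98 ± 0.10 (adjusted p = 6.33e-05). Uqcrc1 had the smallest fall of the complex (-0.53 ± 0.08, adjusted p = 0.000593 by edgeR), and its share of the summed FPKM of the complex went from 7.97% to 12.3%.

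Cytochrome c itself, encoded by Cycs, fell as well. Cycs had 65.2, 72.7 and 75.6 CPM in the young and 47.4, 39.99 and 43.7 CPM in the old libraries. The groups did not overlap, and the log2 fold change was -0.70 ± 0.09 (adjusted p = 0.000212 by edgeR). Hccs, the lyase that attaches haem to cytochrome c, did not pass (-0.04, adjusted p = 0.871 by edgeR), and Cyct, the testis form, had no count in any library.

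**Figure D3:**
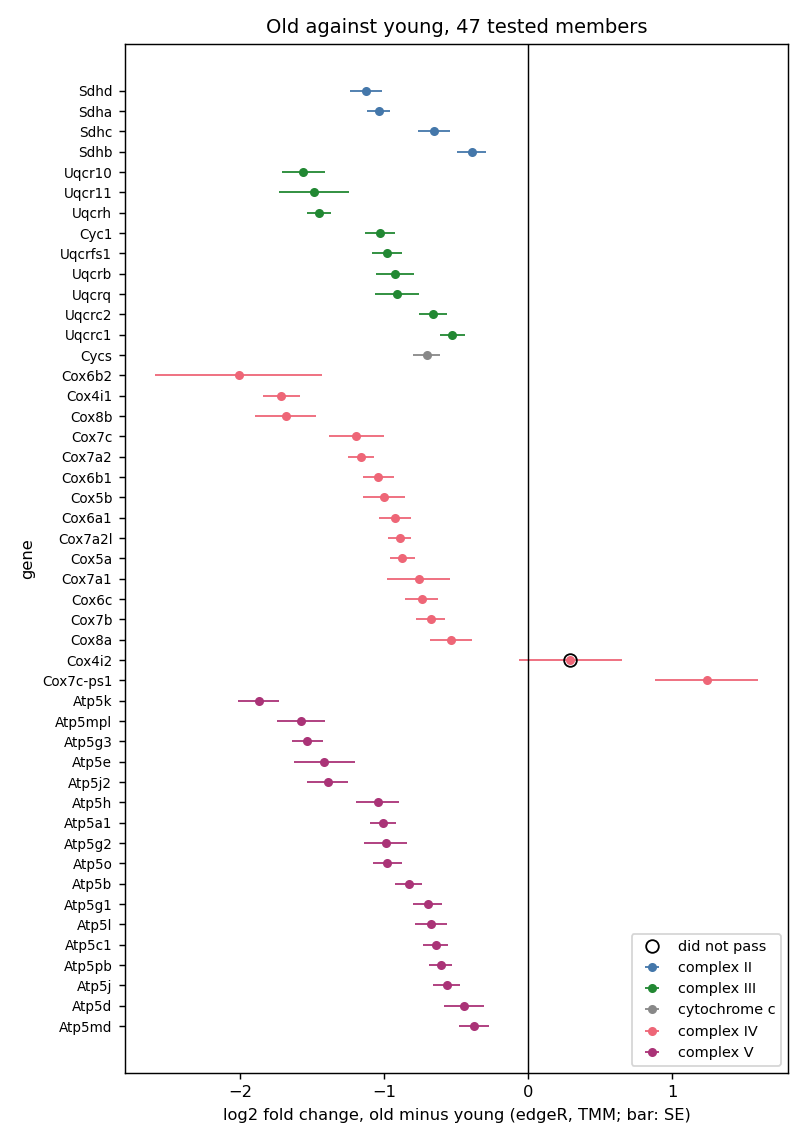
Log2 fold change of each of the 47 tested members (points, old minus young, edgeR with TMM scaling) with its SE as a bar, coloured by complex; the ring marks the member that did not pass. Cox6b2 has the largest fall and the widest bar of the falling members, Cox7c-ps1 is the only member on the right that passed, and the other falls lie between -1.87 (Atp5k) and -0.38 (Atp5md).

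Complex IV passes electrons to oxygen, and its subunits come partly in tissue-specific forms. Of 16 tested genes 14 fell, Cox7c-ps1 rose and Cox4i2 did not pass (median -0.91). Over all tested genes 27.3% were called lower and 26.9% higher, and 74.2% of protein-coding genes under 400 bases were called lower. The 10 genes for the widely used subunits all fell, by log2 fold changes between -0.53 and -1.71. Cox4i1, which encodes the common form of subunit 4 that binds ATP, lies at chr8:120668225-120674209 and fell furthest among them. It had 309, 400 and 446 CPM in young 1, 2 and 3 and 126, 120 and 107 CPM in old 1, 2 and 3. Every old library held less than 1 in 2 of the lowest young value, a log2 fold change of -1.71 ± 0.13 (adjusted p = 1.52e-05 by edgeR). Its share of the summed FPKM of complex IV went from 16.3% to 9.8%. Cox8a, the common form of subunit 8 and by FPKM the most abundant member (mean 655), fell least of these. It had 187, 266 and 302 CPM in the young and 177, 164 and 181 CPM in the old libraries, so old 3 came close to young 1. The fall of -0.53 ± 0.15 (adjusted p = 0.0112 by edgeR) did not pass with library totals (-0.25, adjusted p = 0.110), and the share of Cox8a in the complex went from 16.9% to 23.6%.

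Among the other widely used forms, Cox6a1 had 132, 160 and 182 CPM in the young and 83.2, 86.8 and 80.2 CPM in the old libraries (-0.92 ± 0.11, adjusted p = 0.000115 by edgeR). For Cox6b1, whose product sits where cytochrome c docks, the values were 99.6, 122 and 132 CPM in the young and 59.9, 54.2 and 58.2 CPM in the old libraries (-1.04 ± 0.11, adjusted p = 5.47e-05 by edgeR). Cox7a2 had 82.7, 80.02 and 94.0 CPM in the young and 39.6, 38.9 and 36.3 CPM in the old libraries (-1.16 ± 0.09, adjusted p = 1.57e-05 by edgeR). In all 3 genes every old library was below every young one. The other 6 (Cox5a, Cox5b, Cox6c, Cox7b, Cox7c and Cox8a) had log2 fold changes between -0.53 and -1.19. Cox7a2l, which encodes a factor that joins complexes III and IV and of which C57BL/6 mice carry a shortened form, fell by 0.89 on the log2 scale (SE 0.08, adjusted p = 2.74e-05 by edgeR).

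Values of the tissue forms differed among themselves. Cox8b, a form of subunit 8 known from heart, skeletal muscle and brown fat of mice, had the highest level of the tissue forms and a large fall. Its gene lies at chr7:140898942-140900446 and had 28.7, 48.2 and 57.7 CPM in the young and 13.3, 14.3 and 14.2 CPM in the old libraries. The old libraries were close together and all below young 1, the lowest young library (-1.68 ± 0.21, adjusted p = 0.000152 by edgeR). Cox7a1, the heart and muscle form of subunit 7a, had 10.4, 15.4 and 21.0 CPM in the young and 9.44, 8.29 and 9.90 CPM in the old libraries. Old 3 and old 1 came close to young 1, and the fall of -0.76 ± 0.22 (adjusted p = 0.0143 by edgeR) was lost without old 2 (adjusted p = 0.0602) and with library totals (-0.47, adjusted p = 0.067). Cox6b2, known from testis, was scarce, with 1.51, 2.13 and 2.01 CPM in the young and 0.790, 0.570 and 0.0346 CPM in the old libraries. Old 3 rested on 1 count, and the log2 fold change of -2.01 ± 0.58 (adjusted p = 0.0145 by edgeR) lay between -1.48 and -2.62 when each library was left out in turn. Cox4i2, an oxygen-responsive form known from lung, had 1.04, 0.843 and 0.701 CPM in the young and 0.687, 1.41 and 1.07 CPM in the old libraries. Its groups overlapped (0.29 ± 0.36, adjusted p = 0.507 by edgeR).

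The promoters of the pair Cox8a and Cox8b are shown because the widely used form had the smallest fall of complex IV that passed and the tissue form one of the largest. Both are the 250 bases before the gene start from RefSeq (GRCm38.p6), 5′ to 3′ on the gene's strand, and neither holds any of the motifs searched for below, so no letters are in capitals.
Cox8a (chr19:7217617-7217866, minus strand): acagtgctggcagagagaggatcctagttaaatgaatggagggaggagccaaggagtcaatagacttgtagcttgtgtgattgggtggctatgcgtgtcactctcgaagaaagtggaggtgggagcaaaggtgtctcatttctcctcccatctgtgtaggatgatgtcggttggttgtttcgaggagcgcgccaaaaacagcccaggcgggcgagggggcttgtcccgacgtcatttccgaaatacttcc
Cox8b (chr7:140900447-140900696, minus strand): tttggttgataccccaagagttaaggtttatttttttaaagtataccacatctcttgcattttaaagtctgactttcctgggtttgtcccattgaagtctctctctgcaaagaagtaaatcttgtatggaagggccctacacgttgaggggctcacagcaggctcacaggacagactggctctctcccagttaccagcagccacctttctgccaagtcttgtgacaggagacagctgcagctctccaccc
The Cox8a window has 52.8% G or C and 11 CpG sites, and the Cox8b window 47.2% and 1. The median over member promoters was 54.6% and 14 CpG sites, and over coding promoters 55.6% and 10.

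Markers of muscle and fat were counted beside these forms. Of 8 tested skeletal muscle markers 2 fell, Acta1 and Pvalb, and none rose, where 27.3% of all tested genes were called lower. The summed CPM of the markers by library totals, most of it from Pvalb, was 132 to 145 in the young and 100 to 112 in the old libraries. Without young 1, which had the lowest Ckm and Acta1 counts of the young libraries, 10 were tested and 6 fell, with a median of -1.49 in place of -1.04. That fit called 28.9% of all tested genes lower. Pvalb, which neurons and hair cells also express, had between 82.0 and 146 CPM, while each of the other 7 tested with all libraries was at most at 11.1 CPM in any library. Ckm had 11, 41 and 110 counts in young 1, 2 and 3 and 3, 20 and 18 in old 1, 2 and 3. The heart markers Myl7 and Nppa had no count in any library. Of the 2 tested heart markers, Myh6 did not pass (0.31, adjusted p = 0.362 by edgeR) and Tnnt2 rose. Tnnt2 had 0.812, 0.843 and 0.792 CPM in the young and 4.50, 3.49 and 3.46 CPM in the old libraries (2.22, adjusted p = 6.55e-05 by edgeR). The brown fat marker Ucp1 had at most 4 counts in any library, and Cidea fell from 4.09, 4.24 and 5.00 CPM to 1.48, 1.21 and 0.900 CPM. The part of muscle or fat cells in the fall of Cox8b was not tested.

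Because a share within a library does not depend on scaling between libraries, each tissue form was also set against its partner by FPKM. Cox8b made up 25.1%, 29.2% and 30.4% of Cox8a plus Cox8b in young 1, 2 and 3 and 15.3%, 17.0% and 15.7% in old 1, 2 and 3. The mean share fell by 12.3 percentage points, from 28.2% ± 2.78 to 16.0% ± 0.873 (SD, n = 3; two-sided exact permutation p = 0.1, 0.16 adjusted over 8 shares). Computed from counts, which are not divided by length, the difference was -7.44 points. Cox7a1 made up 30.6%, 41.4% and 45.2% of Cox7a1 plus Cox7a2 in the young and 48.4%, 44.9% and 51.4% in the old libraries, so the groups overlapped (exact permutation p = 0.2, adjusted 0.229). The share of Cox4i2 beside Cox4i1 was 0.340%, 0.204% and 0.155% in the young and 0.488%, 1.07% and 0.923% in the old libraries (exact permutation p = 0.1, adjusted 0.16). Cox6b2 took 1.16%, 1.31% and 1.15% of its pair in the young and 1.14%, 1.04% and 0.0625% in the old libraries, 2 of which were close to the young (exact permutation p = 0.1, adjusted 0.16). Cox6a2 took at most 0.160% of its pair in any library. With 3 against 3 libraries, 0.1 is the smallest p this test allows, so no share could pass.

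**Figure D4:**
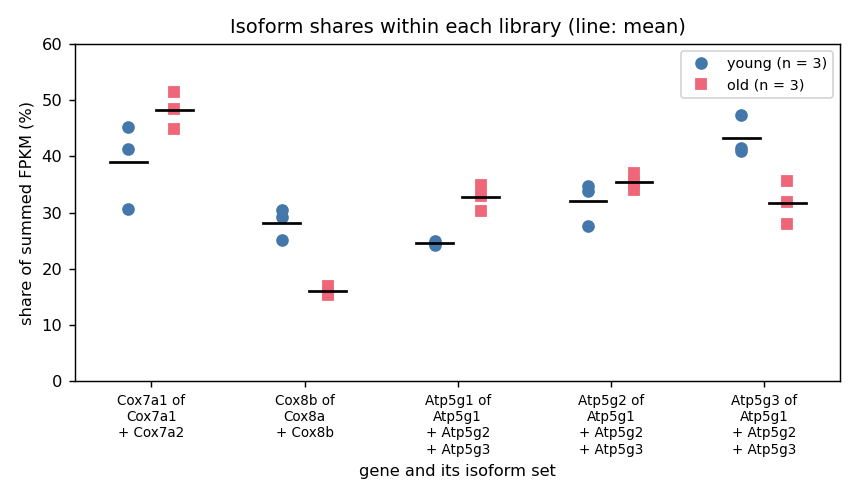
Share of summed FPKM in percent of 1 gene within its isoform set, for 5 genes (x axis), with young libraries as circles, old libraries as squares and the mean as a line. Cox8b and Atp5g3 take lower shares in every old library and Atp5g1 a higher one, while Cox7a1 and Atp5g2 overlap between groups.

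Cox7c-ps1, a copy of Cox7c, was the 1 member that rose. It had 13, 13 and 9 counts in young 1, 2 and 3 and 25, 21 and 24 in old 1, 2 and 3, or 0.364, 0.365, 0.274, 0.858, 0.705 and 0.831 CPM. The log2 fold change of 1.24 ± 0.36 (adjusted p = 0.0143 by edgeR) was lost without young 2 (adjusted p = 0.06) or young 3 (adjusted p = 0.0794). Cox7c itself fell by 1.19 on the log2 scale (SE 0.19, adjusted p = 0.000588 by edgeR), and since both share sequence the value of the pseudogene is uncertain.

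Complex V makes ATP, and all 17 of its genes fell, by log2 fold changes between -0.38 and -1.87 (median -0.98). As a background, 27.3% of all tested genes and 74.2% of protein-coding genes under 400 bases were called lower. All 3 old libraries lay below all 3 young ones in 31% of all tested genes. The F1 head, which holds the catalytic sites, had 5 of 5 genes lower with a median of -0.83. Atp5b encodes its catalytic beta subunit and had the highest FPKM of the complex (mean 474); it stood at 926, 1031 and 1121 CPM in the young and at 616, 566 and 550 CPM in the old libraries. Atp5a1, which encodes the alpha subunit, had 766, 844 and 933 CPM in the young and 437, 412 and 417 CPM in the old libraries. Both were lower in every old library than in any young one, with log2 fold changes of -0.83 ± 0.09 for Atp5b (adjusted p = 8.06e-05 by edgeR) and -1.01 ± 0.09 for Atp5a1 (adjusted p = 2.74e-05). Both have an effective length over 1000 bases. Of the central stalk, Atp5e (epsilon) had a log2 fold change of -1.42, Atp5c1 (gamma) one of -0.64 and Atp5d (delta) one of -0.45. Atp5d was the member that fell although its groups overlapped: old 2 at 155 CPM was above young 1 at 153 CPM. Its call (adjusted p = 0.0193 by edgeR) was lost without young 2, young 3, old 1 or old 3, with adjusted p between 0.0511 and 0.0623, and with library totals (adjusted p = 0.262).

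The peripheral stalk, which holds the head still against the rotor, had 4 of 4 genes lower, from Atp5h (subunit d) at -1.04 and Atp5o (OSCP) at -0.98 to Atp5pb (subunit b) at -0.61 and Atp5j (F6) at -0.57. The 5 small membrane subunits, which help the enzyme form dimers or bind it in the membrane, had a median of -1.39 and the widest range of the complex. Atp5k, which encodes subunit e of the dimer contact, had 12.4, 12.8 and 11.5 CPM in the young and 3.64, 3.39 and 3.01 CPM in the old libraries. Replicates lay close together in both groups, and the log2 fold change of -1.87 ± 0.14 (adjusted p = 1.52e-05 by edgeR) was the largest of the complex. Atp5mpl, a small proteolipid of the membrane part, had 43.3, 64.1 and 64.2 CPM in the young and 19.9, 16.0 and 21.6 CPM in the old libraries (-1.58 ± 0.17, adjusted p = 6.08e-05 by edgeR). Atp5j2 (subunit f) followed at -1.39 and Atp5l (subunit g) at -0.67. Atp5md, also called DAPIT and known to stabilise dimers, had the smallest fall of all members, -0.38 ± 0.11 (adjusted p = 0.0121 by edgeR), which did not pass with library totals (-0.10, adjusted p = 0.393). Atp5k and Atp5md, which had the largest and the smallest fall of the complex, have effective lengths of 98.5 and 161 bases. The part of length in the falls of complex V was not tested.

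Subunit c of the rotor ring is encoded by 3 genes whose mature proteins are the same, and all 3 fell. Atp5g3 had 144, 147 and 162 CPM in the young and 53.7, 58.4 and 44.6 CPM in the old libraries (-1.53 ± 0.11, adjusted p = 1.18e-05 by edgeR). Atp5g2 had 72.7, 103 and 118 CPM in the young and 50.7, 47.5 and 50.04 CPM in the old libraries (-0.99 ± 0.15, adjusted p = 0.000422 by edgeR). Atp5g1 had 88.2, 102 and 112 CPM in the young and 64.5, 57.5 and 64.4 CPM in the old libraries (-0.70 ± 0.10, adjusted p = 0.000303 by edgeR). No old library reached a young one in any of the 3 genes, but they fell unequally. The share of Atp5g3 in their summed FPKM was 47.4%, 41.5% and 41.0% in the young and 31.9%, 35.6% and 28.0% in the old libraries, a mean difference of -11.5 percentage points. That of Atp5g1 was 24.9%, 24.6% and 24.3% in the young and 32.9%, 30.3% and 35.0% in the old libraries, a mean difference of 8.15 points. For both genes the groups did not overlap and the two-sided exact permutation p was 0.1 (0.16 adjusted over 8 shares). Atp5g2 overlapped, at 27.7%, 33.8% and 34.7% in the young and 35.2%, 34.1% and 37.0% in the old libraries (exact permutation p = 0.2, adjusted 0.229). Since the genes share coding sequence, how the authors' counting split their reads is uncertain.

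The inhibitor of the enzyme did not follow the subunits. Atpif1, which encodes the protein that blocks ATP synthase from running in reverse and is not among the 50 genes, had 35.7, 50.5 and 43.1 CPM in the young and 42.9, 49.99 and 54.8 CPM in the old libraries. Its groups overlapped and it did not pass (0.19 ± 0.13, adjusted p = 0.243 by edgeR). With library totals it passed as higher (0.47, adjusted p = 0.0106), and without young 1 its value was 0.05 (adjusted p = 0.747).

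Summed over the coding members, every complex was lower in the old libraries, and which fell furthest depended on the unit. Complex II summed to 367, 381 and 399 FPKM in young 1, 2 and 3 and to 269, 268 and 263 FPKM in old 1, 2 and 3, so the old mean was 69.7% of the young. Complex III summed to 1218, 1514 and 1658 FPKM in the young and to 814, 812 and 767 FPKM in the old libraries, or 54.5%. For complex IV the old mean was 63.8% of the young (4085 ± 634 to 2605 ± 93.9 FPKM; SD, n = 3), and for complex V 63.4% (4141 ± 438 to 2626 ± 64.5 FPKM). No old sum reached a young one in any complex, and the SD was smaller in the old group in all 4. The ratio of complex III to complex II was 3.32, 3.98 and 4.16 in the young and 3.03, 3.03 and 2.92 in the old libraries. The ratios of complex IV and of complex V to complex II overlapped between groups, with young 1 among or below the old values. All 49 coding members together took 0.599% of the gene counts in the young and 0.384% in the old libraries. Per complex, the old share of counts was 65.9% of the young one for II, 62.9% for III, 59.8% for IV and 65.9% for V, so complex III had the lowest ratio by FPKM and complex IV by counts. A sum over chosen genes was given no p.

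**Figure D5:**
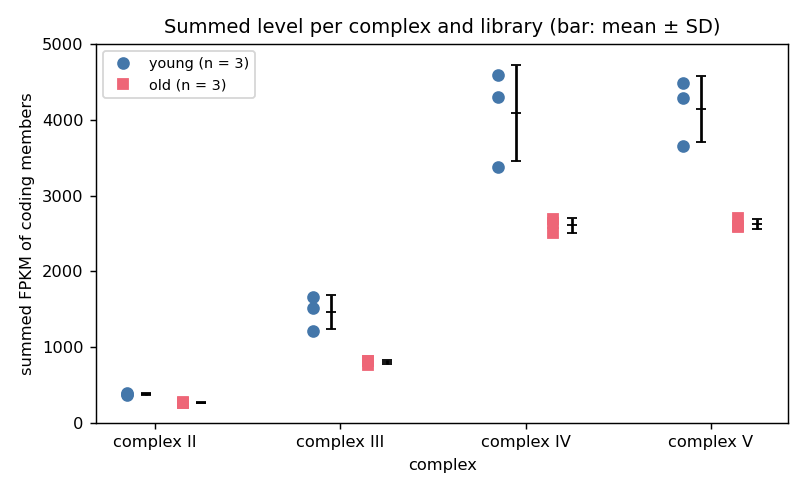
Summed FPKM of the coding members of each complex (y axis) in each library, with young libraries as circles, old libraries as squares and the mean ± SD as a bar. In every complex the old libraries lie together below the young ones, and young 1 is the lowest young library.

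The promoters of the members were searched for letters of factors known to drive respiratory genes. RefSeq gave the 250 bases before the start for 37 of the 50 members and for 17492 coding genes, and each motif was searched on both strands. GCGCATGCG, the core bound by NRF1, was in 5 members (13.5%) and in 2.19% of coding genes. The looser GCGCANGCG, which includes it, was in 9 members (24.3%) and in 8% of coding genes. CCGGAAG, the core bound by ETS factors such as GABPA, was in 9 members (24.3%) and in 10.2% of coding genes. ATGGCGGC, the core bound by YY1, was in 0 members and in 1.41% of coding genes. TATAAA, added after the values were seen, was in 3 members (8.11%) and in 13.7% of coding genes. A match says only that the letters are there. The median number of CpG sites was 14 in member promoters and 10 in coding promoters, and the motif shares were not adjusted for this. Whether any of these factors had a part in the falls was not tested. The median log2 fold change was -0.92 in the 5 members with GCGCATGCG and -0.98 in the others, and -1.04 with and -0.89 without CCGGAAG. The windows of 3 of these 5 members, from complex IV, complex V and cytochrome c, are shown as examples, with the motif letters in capitals.
Cox6a1 (chr5:115348959-115349208, minus strand): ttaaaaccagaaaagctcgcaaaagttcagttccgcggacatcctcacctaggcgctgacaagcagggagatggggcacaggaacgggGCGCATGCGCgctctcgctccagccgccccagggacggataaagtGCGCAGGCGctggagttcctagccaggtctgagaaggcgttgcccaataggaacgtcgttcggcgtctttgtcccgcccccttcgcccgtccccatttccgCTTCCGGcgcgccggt
Atp5l (chr9:44920743-44920992, minus strand): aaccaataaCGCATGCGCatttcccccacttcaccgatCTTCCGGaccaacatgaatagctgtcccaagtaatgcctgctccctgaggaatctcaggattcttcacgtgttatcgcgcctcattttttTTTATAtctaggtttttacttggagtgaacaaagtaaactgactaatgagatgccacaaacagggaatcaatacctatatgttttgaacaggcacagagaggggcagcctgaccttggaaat
Cycs (chr6:50566570-50566819, minus strand): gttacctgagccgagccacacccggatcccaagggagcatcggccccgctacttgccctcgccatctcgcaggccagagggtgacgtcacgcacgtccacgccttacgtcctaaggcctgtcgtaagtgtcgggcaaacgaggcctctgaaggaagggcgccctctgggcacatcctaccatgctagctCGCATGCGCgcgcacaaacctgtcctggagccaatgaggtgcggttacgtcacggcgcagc
In Cox6a1 the capitals mark GCGCATGCG on both strands, a match to GCGCANGCG and the ETS core on the opposite strand. Atp5l holds the reverse complements of GCGCATGCG, of the ETS core and of TATAAA, and Cycs that of GCGCATGCG. The other 2 members with GCGCATGCG were Atp5k and Atp5g2. Cox6a1, Atp5l and Cycs had log2 fold changes of -0.92, -0.67 and -0.70.

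Of 14 tested genes for regulators of respiratory genes 3 rose, 3 fell and 8 did not pass with TMM scaling on all genes. In that fit these shares were no higher than the 26.9% higher and 27.3% lower over all tested genes. Ppargc1a, the coactivator PGC-1 alpha that promotes mitochondrial biogenesis, had 140, 125 and 126 CPM in the young and 182, 192 and 222 CPM in the old libraries (0.61 ± 0.09, adjusted p = 0.000438 by edgeR). Its relative Ppargc1b (0.76) and the factor Nrf1 (0.36) also rose. The falls were those of the estrogen-related receptor genes Esrra (-0.74) and Esrrb (-0.98) and of Tfam (-0.37), the packaging factor of mitochondrial DNA. Esrrb, which the marginal cells of the stria vascularis are known to need, had 352, 478 and 477 CPM in the young and 212, 218 and 231 CPM in the old libraries. Gabpa, Gabpb1 and Yy1 did not pass. With library totals Gabpa (0.49, adjusted p = 0.0022 by edgeR) and Yy1 (0.30, adjusted p = 0.00668) were called higher. With the length offset Yy1 passed (0.58, adjusted p = 0.000698 by edgeR) and Gabpa did not (adjusted p = 0.0922). Without young 1 neither Gabpa nor Yy1 passed. Under library totals 8 of the 14 were called higher and 2 lower, where 41% and 14.5% of all tested genes were, and Tfam was lost (-0.10, adjusted p = 0.487 by edgeR). With TMM on protein-coding genes 6 were higher and 2 lower, where 33.7% and 20.6% of all tested genes were. The length offset gave 5 higher and 3 lower, against 25.7% and 26%. Without young 1 the numbers were 4 and 4, against 25.9% and 28.9%.

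Assembly factors, which build the complexes without staying in them, were mixed. Beside their counts stand the 27.3% of all tested genes called lower and the 26.9% called higher. For complex IV, 13 of 23 tested factors fell and 1 rose (median -0.38); among them Surf1, which acts early in assembly, had 28.1, 30.3 and 31.7 CPM in the young and 14.5, 15.0 and 13.7 CPM in the old libraries (-1.06 ± 0.10, adjusted p = 3.27e-05 by edgeR). Pet100 (-1.37) and Higd1a (-1.29) fell furthest, and Cox16 rose (0.52 ± 0.08, adjusted p = 0.000569). For complex II 3 of 4 fell, with Sdhaf4, which matures Sdha, at -1.53. For complex III 3 of 6 fell, and Ttc19, which clears fragments of the Rieske protein, rose from 54.3, 51.6 and 50.1 CPM to 79.3, 72.4 and 79.5 CPM (0.57 ± 0.08, adjusted p = 0.000267 by edgeR). For complex V 2 of 3 fell. With library totals the numbers called lower were 11 of 23 for complex IV, 1 of 4 for II, 1 of 6 for III and 1 of 3 for V, and 3 factors for complex IV and Ttc19 were higher. That fit called 14.5% of all tested genes lower and 41% higher.

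Complex I, which is not among the 50 genes, was set beside them. Of its 38 subunit genes 34 fell, Ndufs4 rose and 3 did not pass, with a median of -0.84. The same fit called 27.3% of all tested genes and 34.7% of the protein-coding genes lower. With library totals 30 subunit genes fell (median -0.56), where 14.5% of all tested genes were called lower. With the length offset 33 fell and the call of Ndufs4 was lost. One of the subunits, Ndufa4, is a protein now counted to complex IV. It had 93.5, 98.8 and 107 CPM in the young and 57.4, 53.5 and 61.4 CPM in the old libraries (-0.80 ± 0.09, adjusted p = 6.9e-05 by edgeR). Of 16 genes for other mitochondrial functions 13 fell, Ckmt2 rose and 2 did not pass (median -0.59). With library totals 10 of them fell and 2 rose (median -0.31). Ckmt2 passed narrowly (0.71, adjusted p = 0.0463 by edgeR) with groups that overlapped, young 1 at 2.77 CPM and old 2 at 2.68 CPM, and did not pass with the length offset (adjusted p = 0.0818). The channel Vdac1 went from 366, 393 and 394 CPM to 204, 206 and 222 CPM, and the ADP/ATP carrier Slc25a5 from 170, 206 and 208 CPM to 97.4, 84.4 and 93.5 CPM. In both, every old library was below every young one.

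Markers of cochlear cell types differed in direction between types, where 27.3% of all tested genes were called lower and 26.9% higher. All 5 marginal cell markers fell (median -0.93), and their summed CPM by library totals was 8390 to 10400 in the young and 5070 to 5920 in the old libraries. All 7 hair cell markers fell (median -1.10), from a sum of 146 to 202 to one of 101 to 111. All 5 spiral ganglion neuron markers rose (median 0.82), from a sum of 810 to 1340 to one of 2150 to 2580. All 6 red cell markers and all 4 neutrophil markers fell, with medians of -2.40 and -3.62, and 3 of 4 bone markers fell. Supporting cell markers were mixed, with Sox2 (1.19) and Otog (0.55) higher, Gjb6 (-0.46) and Fgfr3 (-0.31) lower and Gjb2 not passed. Of 6 pericyte markers Rgs5 (0.72) and Notch3 (0.95) rose, Abcc9 (-0.52) fell and 3 did not pass. With library totals 6 of 7 hair cell and 4 of 5 marginal cell markers were called lower, and all 5 neuron markers higher. In that fit 2 supporting cell and 3 pericyte markers were higher and none of either lower. It called 14.5% of all tested genes lower and 41% higher. Long noncoding genes took 2.74% to 3.37% of the gene counts in the young and 4.98% to 5.25% in the old libraries. The part of cell make-up in the falls of the members was not tested.

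In the annotation 16 members overlap another gene, and strandedness is not stated, so reads of shared spans are uncertain. The longest overlaps with protein-coding genes are those of Cox4i2 with Bcl2l1 (6308 bases), Cox7a2 with Tmem30a (2482 bases), Atp5d with Cbarp (1658 bases) and Atp5j with Gabpa (967 bases). Overlaps with noncoding genes or pseudogenes reach 3891 bases for Cox4i2, 2858 for Cox7a2, 2011 for Sdhc and 1721 for Uqcrh.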

How the data were processed

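Total RNA of 6 libraries was depleted of ribosomal RNA, per the labels' protocols; GRCm38.p6 is the build named, per the submitters' processing notes. For the aligner, the quantifier and the strandedness no source used here gives a name. The authors deposited estimated counts per gene, not scaled between libraries (20.2% of the gene values are not whole), and FPKM, which they scaled by transcript length and library total. Of 42623 entries, 8228 for circular RNAs were left out.

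Estimated counts were rounded and tested with edgeR 4.0.16 (R 4.3.3): filterByExpr by group, TMM scaling, quasi-likelihood F tests and Benjamini-Hochberg adjustment over all 20157 tested genes. The value after ± is the SE of a log2 fold change, taken as its size over the root of F, or the SD over 3 libraries. The biological coefficient of variation, common to all genes, was 0.134. Shares of FPKM were compared by a two-sided exact permutation test. FPKM was otherwise used for levels, for implied effective lengths (count of at least 10) and in limma-trend on log2 values after adding 1 or 0.1. Positions and promoters came from RefSeq (GRCm38.p6); 49 of the 50 members were found in it. Python 3.11.15, pandas 2.3.3, scipy 1.17.1 and matplotlib 3.10.9 were used.

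Members and gene lists were chosen with earlier results of these data known. Members named with all values were, per complex, the 2 with the highest mean FPKM and the 2 with the largest falls at a mean of at least 5 CPM, all that rose, the isoform sets, the Sdh genes, Cycs and Atpif1. Others are given as counts and ranges, or were named after their values were seen. Alternatives were other scalings, filters and tests, a length offset, a replicate block and leaving out each library.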

Additional observations from a re-analysis of the deposited data

How the results depend on the processing

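Directions of the members held in every alternative: the 45 members that fell had a log2 fold change below 0 in each fit that tested them. The number called lower was 45 with DESeq2 size factors, upper-quartile scaling, no filter on low counts, removal of the 10 features with the most counts and the globin genes, the length offset, the DESeq2 1.42.0 Wald test and limma-voom (limma 3.58.1). Over all tested genes these fits called between 18.6% (no filter) and 27.6% (DESeq2 size factors) lower. The number of members was 40 with limma-trend on log2(FPKM + 1) and 39 with log2(FPKM + 0.1), against 13.7% and 13.9% of all tested genes. Over the 47 members' fold changes, 865 alternative values kept their side of the threshold and 25 lost it, the latter in Atp5d, Atp5md, Sdhb, Cox8a, Cox7a1, Cox6b2 and Cox7c-ps1. With a mean count of at least 50, 44 members were tested and 44 fell, and the number higher was 0 over all members and 0 in complex IV, since the scarce Cox7c-ps1 was no longer tested. That fit called 29.2% of all tested genes lower. Leaving out each library gave 44 to 45 members lower, and 0 to 1 higher over all members and in complex IV alike. The share of all tested genes called lower then ran from 21.9% (without young 2) to 28.9% (without young 1). Cox7c-ps1 was lost without young 2 or young 3. The difference in the share of Cox8b was -7.44 percentage points from counts in place of -12.3 from FPKM, which divides by length.

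Like-numbered young and old libraries did not deviate together (correlations of -0.08, 0.03 and -0.06 across genes), so the numbers were not taken as pairs. With the replicate block 45 members were lower and 1 higher, against 25.2% and 24.1% of all tested genes. For the other lost calls the cause was not tested. Cox6b2, Cox4i2 and Cox7c-ps1 rest on at most 76 counts in any library, and the 3 members not tested on at most 9.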
